A study of Mus musculus with 30 samples.

Results

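The genes described here are nuclear genes of respiratory complex I, taken as every row of the deposited mouse mRNA table whose Ensembl ID maps to a symbol starting with Nduf, with symbols that end in -ps or begin with Gm left out. This rule gave 48 of the 11249 genes in the table, 46 of them protein coding and 2, Ndufb4c and Ndufs6b, annotated as processed pseudogenes. By role, 10 members belong to the N module, 6 to the Q module, 9 to the proximal and 10 to the distal membrane arm, 1 is the acyl carrier protein Ndufab1, 8 are assembly factors and 2 are the pair Ndufa4 and Ndufa4l2. Left out by the rule were Ndufab1-ps, annotated as a processed pseudogene, and Ndufb1-ps, annotated as a long non-coding RNA of a bidirectional promoter and not as a pseudogene.

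Complex I oxidises NADH in the mitochondrial matrix and passes the electrons through a flavin and a chain of iron-sulphur clusters to ubiquinone, while its membrane arm pumps protons. The N module binds NADH, the Q module reduces ubiquinone, and the membrane arm carries the pumping subunits, which are encoded in the mitochondrial genome. The other subunits and the assembly factors are nuclear genes whose products are imported, so the complex draws on 2 genomes. In skeletal muscle, complex I is abundant in oxidative fibres and supports sustained contraction.

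RNA was measured by strand-specific polyA RNA-seq in 2 muscles of male mice, 3 days after surgery. The surgeries were a spinal cord transection at the high-thoracic level T3, a transection at the low-thoracic level T9, and a sham operation. The gastrocnemius, a hindlimb muscle, gave 4 libraries per surgery, and the triceps brachii, a forelimb muscle, gave 6 per surgery. The labels name no strain, age or pooling, and do not say that libraries of a group came from separate animals, so a p-value here measures the spread between libraries.

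All values are CPM (read counts scaled to a fixed library total) or their log2, and each library is scaled to its own total. Libraries held 13.3 to 23.4 M reads (M, 1000000 reads), apart from triceps T3 replicate 5 with 88.8 M. All 10 skeletal muscle markers were present, summing to between 89150 and 151900 CPM per library, so the muscle label is borne out by its markers. No neutrophil or T and NK cell marker was in the table. The summed level of the 9 macrophage markers in the table was 20.9 to 77.9 CPM in 29 libraries and 1007 CPM in triceps sham replicate 4. Libraries also differed in the median log2 CPM of all genes, which was 4.05 to 4.26 in gastrocnemius T3, 4.27 to 4.33 in gastrocnemius T9 and 3.66 to 4.06 in gastrocnemius sham libraries. Bulk tissue cannot tell fewer cells of a type from less RNA per cell.

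On average over libraries, Nduf transcripts of the gastrocnemius were lower after both transections. After T3 transection 26 of 48 members fell and 0 rose (adjusted p under 0.05 with limma, Benjamini-Hochberg over 11248 genes), where 6.65% of all genes fell and 27.1% rose. After T9 transection 34 of 48 fell and 0 rose, where 5.67% of all genes fell and 37.6% rose. The median log2 change of the members was -0.74 for T3 and -0.80 for T9, beside medians of 0.27 and 0.40 over all genes tested. Between them, 25 members fell in both comparisons, 1 passed for T3 and not T9 (Ndufaf2), 9 passed for T9 and not T3, and 13 passed in neither; both comparisons use the same 4 sham libraries. The counts moved with single libraries: for T3 transection 7 members were lower without sham replicate 1, 16 without sham replicate 4, 12, 17, 11 and 12 without T3 replicate 1, 2, 3 or 4, and 36 and 35 without sham replicate 2 or 3. For T9 transection 21 were lower without sham replicate 1, 30 without sham replicate 4 and 22 without T9 replicate 3 or 4, and the members' median was -0.72 without sham replicate 1 and -0.57 without sham replicate 4. For T3 transection that median was -0.66 without sham replicate 1 and -0.44 without sham replicate 4. It was -0.93 and -0.92 without sham replicate 2 or 3.

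The summed level of the 48 members averaged 6549 ± 350 CPM in gastrocnemius T3, 5948 ± 623 CPM in T9 and 10730 ± 4159 CPM in sham libraries (SD, n = 4 each). The sham SD was the wide one: sham replicates 1 and 4 were above sham replicates 2 and 3 for 42 of the 48 members, and the median range over libraries was 0.24 log2 units in T3, 0.40 in T9 and 1.40 in sham. Against the sham mean, the members' median log2 difference was 0.24, -0.55, -0.51 and 0.78 in sham replicates 1 to 4. It was -0.82 to -0.66 in T3 libraries and -0.96 to -0.55 in T9 libraries, so T9 replicate 1 was level with sham replicate 2. Every T3 library was below every sham library for 23 members (5.8% of all genes) and every T9 library for 24 (4.83% of all genes), and no member had every T3 or T9 library above sham.

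**Figure D1:**
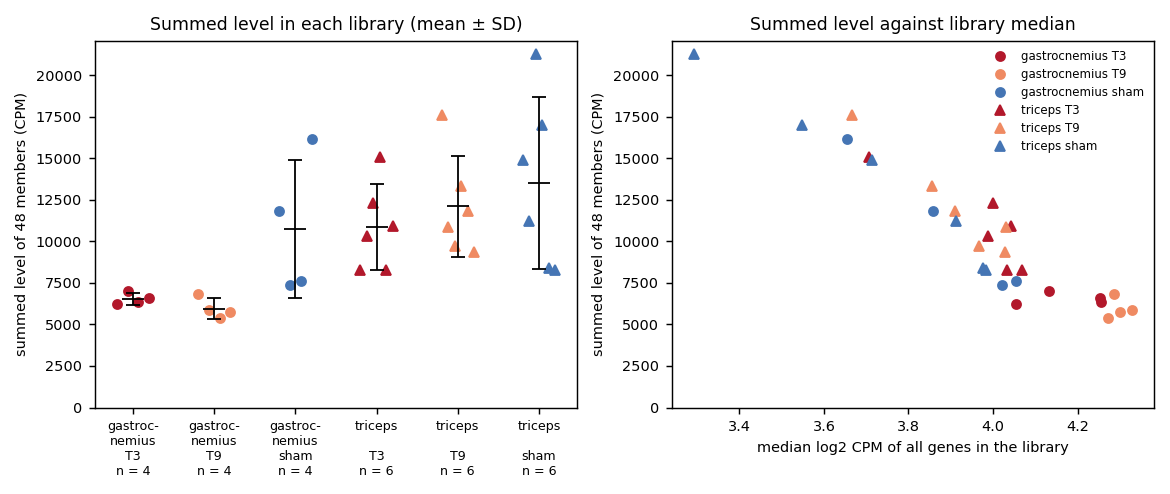
Left: summed level of the 48 Nduf genes (CPM) in each library by muscle and surgery, with mean ± SD. Right: the same level against the library's median log2 CPM over all genes. The 4 T3 and 4 T9 gastrocnemius libraries lie together between 5359 and 7021 CPM, the 4 sham libraries spread between 7375 and 16170 CPM, and libraries with a lower median have a higher summed level in both muscles.

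Over all libraries the members' level tended to be higher where the library median was lower, as the plot of summed level shows. This did not hold within the gastrocnemius T3 or T9 group. There, the libraries with the lowest median (T3 replicate 1, 4.05, and T9 replicate 3, 4.27) also had the members' lowest difference from the sham mean (-0.82 and -0.96). The sham libraries had the widest span of library medians in this muscle. With the library median as a covariate, none of the members listed above as lower passed. Ndufs1 was then lower and Ndufaf8 higher in both gastrocnemius comparisons, and the members' median change was -0.06 for T3 and 0.19 for T9. In this muscle the library medians of T9 and sham do not overlap, and 1 T3 library lies within the sham range, so surgery and library median cannot be told apart here. Scaling each library to a common median instead gave 36 members lower for T3 and 42 for T9, with 0 higher, and medians of -1.01 and -1.20; over all genes it gave 1641 higher and 1627 lower for T3 and 1247 higher and 1398 lower for T9, against 3046 and 748, and 4226 and 638, without it.

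Promoters are shown for the 3 members with the smallest adjusted p for T3 (Ndufaf5, Ndufv3 and Ndufb7) and the 1 with the smallest for T9 (Ndufs7), as the sequences next to the start of members that fell in both comparisons. Each is the RefSeq window of 250 bases before to 50 after the annotated start (GRCm38.p6), 5′ to 3′, with matches to any of 4 searched motifs in capitals.
Ndufaf5, chr2:140170396-140170695, plus strand: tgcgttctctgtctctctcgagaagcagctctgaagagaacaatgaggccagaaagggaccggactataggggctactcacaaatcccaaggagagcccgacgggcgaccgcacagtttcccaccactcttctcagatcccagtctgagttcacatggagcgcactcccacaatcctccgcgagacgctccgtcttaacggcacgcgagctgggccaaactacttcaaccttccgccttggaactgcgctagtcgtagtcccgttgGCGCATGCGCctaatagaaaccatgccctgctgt
Ndufv3, chr17:31519865-31520164, plus strand: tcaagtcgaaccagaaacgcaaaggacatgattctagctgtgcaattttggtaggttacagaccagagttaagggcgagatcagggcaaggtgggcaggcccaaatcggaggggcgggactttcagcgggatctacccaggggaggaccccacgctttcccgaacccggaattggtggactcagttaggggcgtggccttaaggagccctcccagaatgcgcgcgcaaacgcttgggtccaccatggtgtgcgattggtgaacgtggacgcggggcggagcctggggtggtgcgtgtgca
Ndufb7, chr8:83566508-83566807, plus strand: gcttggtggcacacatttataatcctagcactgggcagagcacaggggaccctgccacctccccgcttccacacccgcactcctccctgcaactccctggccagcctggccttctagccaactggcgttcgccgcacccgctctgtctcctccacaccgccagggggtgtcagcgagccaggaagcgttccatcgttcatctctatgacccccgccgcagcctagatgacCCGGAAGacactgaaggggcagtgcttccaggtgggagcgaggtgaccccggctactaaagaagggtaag
Ndufs7, chr10:80249199-80249498, plus strand: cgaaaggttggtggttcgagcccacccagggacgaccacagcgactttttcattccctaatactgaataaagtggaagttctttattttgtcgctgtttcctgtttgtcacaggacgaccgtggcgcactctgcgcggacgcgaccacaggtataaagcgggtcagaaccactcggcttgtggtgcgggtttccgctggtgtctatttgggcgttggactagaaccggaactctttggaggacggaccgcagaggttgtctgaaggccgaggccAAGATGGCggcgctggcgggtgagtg
The motifs were GCGCA and GCGC with any 1 base between them for NRF1, CCGGAAG for ETS factors such as GABP, AAGATGGC for YY1 and TNAAGGTCA for oestrogen-related receptors, read on both strands. RefSeq windows were matched to 40 of the 48 members, in 42 windows. The NRF1 letters stood in 23.8% of the member windows, against 4.6% of all 32851 windows. The YY1 letters stood in 19% of member windows, against 2.75% of all windows, and the ETS letters in 14.3%, against 8.86%. The receptor letters stood in 2.38% of member windows, against 1.28% of all windows. Among the promoters printed, Ndufaf5 holds the NRF1 letters at bases 267 to 276 of its window, Ndufb7 the ETS letters at bases 231 to 237 and Ndufs7 the YY1 letters at bases 275 to 282. Ndufv3 has no match, which says only that these letters are not in that window.

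In the N module, where NADH is oxidised, 3 of 10 members fell after T3 transection and 6 of 10 after T9 transection, with median log2 changes of -0.68 and -0.74. Ndufv3, a small accessory subunit of the flavoprotein, was at 63.1, 71.7, 64.2 and 68.1 CPM in T3, 88.1, 76.5, 71.0 and 66.6 CPM in T9 and 137, 93.3, 94.5 and 247 CPM in sham gastrocnemius. All T3 and T9 libraries lay below the lowest sham library, and sham replicate 4 stood far above the rest. Its log2 change was -0.98 ± 0.25 (standard error) for T3 (adjusted p = 0.00919) and -0.81 ± 0.25 for T9 (adjusted p = 0.0197). Ndufv2, which carries an iron-sulphur cluster, fell by 0.92 and 1.0 on the log2 scale, and Ndufs6, a zinc-binding accessory subunit, fell by 0.75 and 0.84. For T9, the accessory subunits Ndufs4, whose loss in humans causes Leigh syndrome, Ndufa6 and Ndufa12 fell as well, by 0.80, 0.69 and 0.65.

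Neither Ndufs1 nor Ndufv1, both core subunits of the N module, passed in the gastrocnemius. Ndufs1 (chromosome 1, 63143596 to 63176833, minus strand, GRCm38), the largest subunit and the holder of several iron-sulphur clusters, was at 249, 268, 271 and 260.0 CPM in T3, 221, 232, 214 and 234 CPM in T9 and 333, 352, 336 and 171 CPM in sham gastrocnemius. All T3 and T9 libraries were below sham replicates 1 to 3 and above sham replicate 4. Its log2 change was -0.13 ± 0.19 for T3 (adjusted p = 0.621) and -0.35 ± 0.19 for T9 (adjusted p = 0.153). Ndufv1, which binds NADH and the flavin, was at 382 to 431 CPM in T3, 309 to 387 CPM in T9 and 327 to 433 CPM in sham libraries, and these ranges overlap. Neither Ndufa2 nor Ndufa7, both accessory subunits, passed in either comparison.

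In the Q module, next to the ubiquinone site, 3 of 6 members fell after T3 and 5 of 6 after T9 transection, with medians of -0.46 and -0.63. Ndufs7, which holds the last iron-sulphur cluster before ubiquinone, had the smallest adjusted p of all members for T9. It was at 220, 256, 192 and 206 CPM in T3, 222, 175, 184 and 181 CPM in T9 and 404, 268, 281 and 432 CPM in sham gastrocnemius. Every T3 and T9 library was below the lowest sham library. The log2 change was -0.64 ± 0.17 for T3 (adjusted p = 0.0126) and -0.83 ± 0.17 for T9 (adjusted p = 0.0028).

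Ndufa9 (chromosome 6, 126821721 to 126849136, minus strand), an accessory subunit beside the ubiquinone channel, was at 189 to 207 CPM in T3, 158 to 196 CPM in T9 and 213 to 257 CPM in sham gastrocnemius. All T3 and T9 libraries were below the lowest sham library; its log2 change was -0.24 ± 0.12 for T3 (adjusted p = 0.124) and -0.41 ± 0.12 for T9 (adjusted p = 0.0149). Ndufs8, another iron-sulphur subunit, fell by 0.77 and 1.03, and Ndufa5 fell by 0.85 and 1.01. Ndufs3 passed in neither comparison (-0.10 and -0.32).

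Of the proximal membrane arm, 6 of 9 members fell after T3 and 8 of 9 after T9 transection, with medians of -0.73 and -0.87. Ndufa8, a disulphide-bonded subunit on the intermembrane space side, was at 155, 188, 167 and 159 CPM in T3, 154, 119, 112 and 124 CPM in T9 and 272, 174, 185 and 324 CPM in sham gastrocnemius. The T9 libraries were all below sham, while T3 replicate 2 was above sham replicates 2 and 3. The log2 change was -0.47 ± 0.19 for T3 (adjusted p = 0.0726) and -0.87 ± 0.19 for T9 (adjusted p = 0.00385). Ndufc1 had the lowest changes of the arm, at -1.10 and -1.16, and Ndufa13, also known as the interferon-linked factor GRIM-19, fell by 0.87 and 0.89.

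Ndufa10 (chromosome 1, 92439010 to 92473860, minus strand), a subunit related to nucleoside kinases, was the steadiest member in sham gastrocnemius, with a range of 0.05 log2 units. It was at 281, 307, 255 and 268 CPM in T3, 211, 206, 194 and 210.0 CPM in T9 and 265, 266, 258 and 268 CPM in sham libraries. The T9 libraries were below all T3 and all sham libraries, and the T3 libraries overlapped sham. The log2 change was 0.07 ± 0.11 for T3 (adjusted p = 0.651) and -0.37 ± 0.11 for T9 (adjusted p = 0.0171).

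The distal membrane arm, the far end of the proton pump, had 8 of 10 members lower after T3 and 9 of 10 after T9 transection, with medians of -0.88 and -0.97. Ndufb8, widely used as a marker of assembled complex I, was at 148, 158, 148 and 153 CPM in T3, 158, 133, 126 and 137 CPM in T9 and 385, 199, 209 and 632 CPM in sham gastrocnemius. All T3 and T9 libraries lay within a narrow band below sham, and sham replicates 1 and 4 stood well above sham replicates 2 and 3. The log2 change was -1.07 ± 0.28 for T3 (adjusted p = 0.0119) and -1.20 ± 0.28 for T9 (adjusted p = 0.00573), the lowest of any member for T9.

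Ndufb7, a distal subunit facing the intermembrane space, was at 110, 134, 104 and 112 CPM in T3, 136, 103, 108 and 110.0 CPM in T9 and 241, 154, 154 and 353 CPM in sham libraries. Its groups did not overlap with sham either, and its log2 change was -0.89 ± 0.23 for T3 (adjusted p = 0.01) and -0.90 ± 0.23 for T9 (adjusted p = 0.00818). Ndufb5, a membrane-spanning accessory subunit, was at 128, 145, 124 and 132 CPM in T3, 126, 121, 98.1 and 107 CPM in T9 and 248, 152, 166 and 327 CPM in sham libraries. It too had no overlap, with a log2 change of -0.69 ± 0.21 for T3 (adjusted p = 0.0209) and -0.92 ± 0.21 for T9 (adjusted p = 0.0044). Ndufb2 was the distal subunit that passed in neither (-0.80 and -0.78; adjusted p = 0.0683 and 0.0609), at 4.50 to 8.25 CPM in the transected and 6.92 to 22.5 CPM in the sham libraries.

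Ndufab1, the mitochondrial acyl carrier protein that binds complex I and also serves lipoic acid synthesis, fell in both comparisons, by 0.61 and 0.85 (adjusted p = 0.0334 and 0.00633).

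**Figure D2:**
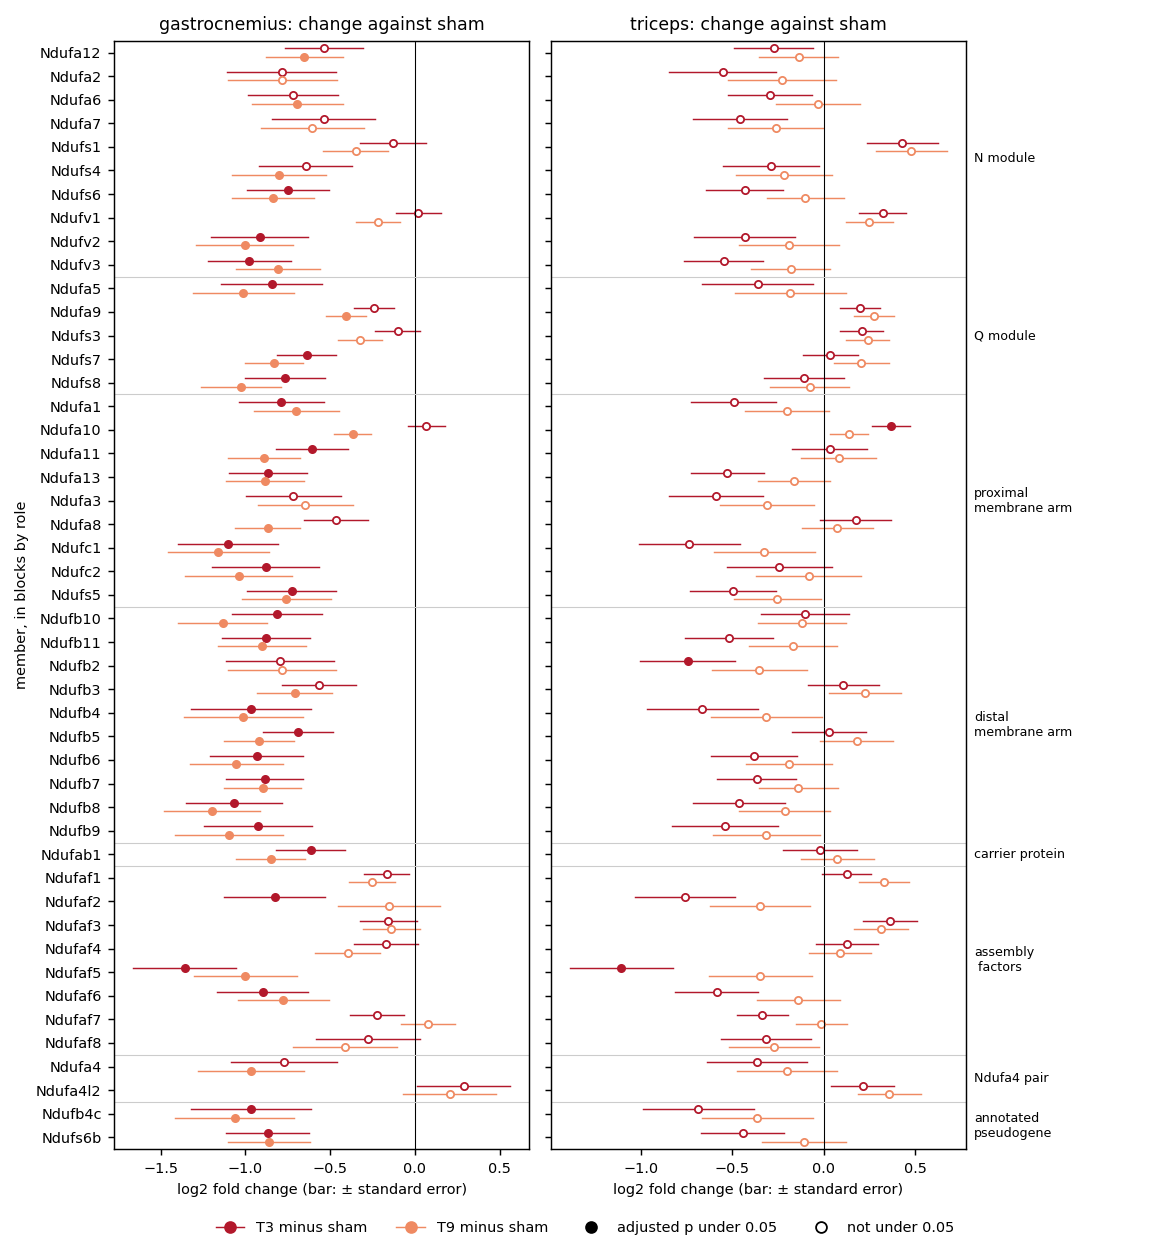
Log2 fold change (± standard error) against sham of the members, in blocks by role (1 member is not drawn), for T3 and T9 transection in gastrocnemius (left) and triceps (right). Filled points have an adjusted p under 0.05. Over all 48 members these were 26 and 34 in the gastrocnemius, all lower, and in the triceps 2 lower and 1 higher for T3 and 0 for T9.

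Of the 8 assembly factors with Nduf symbols, which help to build the complex and are not part of it, 3 fell after T3 and 2 after T9 transection, with medians of -0.25 and -0.33. Ndufaf5, known from human cells to hydroxylate an arginine of the Ndufs7 protein, had the lowest change of any member for T3. It was at 18.6, 20.1, 25.2 and 25.6 CPM in T3, 33.8, 29.1, 25.7 and 25.7 CPM in T9 and 69.0, 35.7, 36.7 and 116 CPM in sham gastrocnemius. The groups did not overlap with sham, and the T3 libraries were also below the T9 libraries. The log2 change was -1.36 ± 0.30 for T3 (adjusted p = 0.00459) and -1.0 ± 0.30 for T9 (adjusted p = 0.0189). Ndufaf6, an early assembly factor, fell by 0.90 and 0.78.

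Ndufaf2, a chaperone of late assembly, was at 5.85, 5.42, 8.69 and 6.64 CPM in T3, 11.1, 10.95, 9.85 and 9.99 CPM in T9 and 14.0, 7.81, 7.34 and 22.9 CPM in sham libraries. T3 libraries were below all T9 libraries and overlapped sham. Its log2 change was -0.83 ± 0.30 for T3 (adjusted p = 0.047) and -0.15 ± 0.30 for T9 (adjusted p = 0.698). The remaining factors, Ndufaf1, Ndufaf3, Ndufaf4, Ndufaf7 and Ndufaf8, lay between -0.41 and 0.07 and passed in neither comparison; Ndufaf1 belongs to the membrane arm assembly complex, Ndufaf3 and Ndufaf4 act on the Q module, Ndufaf7 is a methyltransferase of early assembly and Ndufaf8 is the partner of Ndufaf5, all known from human cells.

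Ndufa4, first described with complex I and now placed in complex IV, was at 401, 448, 393 and 423 CPM in T3, 416, 368, 333 and 339 CPM in T9 and 863, 435, 435 and 1547 CPM in sham gastrocnemius. T9 libraries were below sham, T3 replicate 2 was not. It fell by 0.97 for T9 (adjusted p = 0.0246), and the T3 change of -0.77 did not pass (adjusted p = 0.0706). Its relative Ndufa4l2, known as a hypoxia-induced gene, was at 4.49 to 5.02 CPM in T3, 3.45 to 5.36 CPM in T9 and 1.95 to 5.14 CPM in sham libraries. It had the highest log2 change of any member (0.29 and 0.20; adjusted p = 0.432 and 0.56), with overlapping groups, but the values were -0.03 and -0.12 without sham replicate 4, and the T9 value was -0.19 with each library scaled to a common median. The annotated pseudogenes Ndufb4c and Ndufs6b fell in both comparisons (-0.97 and -1.06, and -0.87 and -0.86); they are near copies of Ndufb4 and Ndufs6, which fell too, so their reads may come from the parent genes and their values are uncertain.

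**Figure D3:**
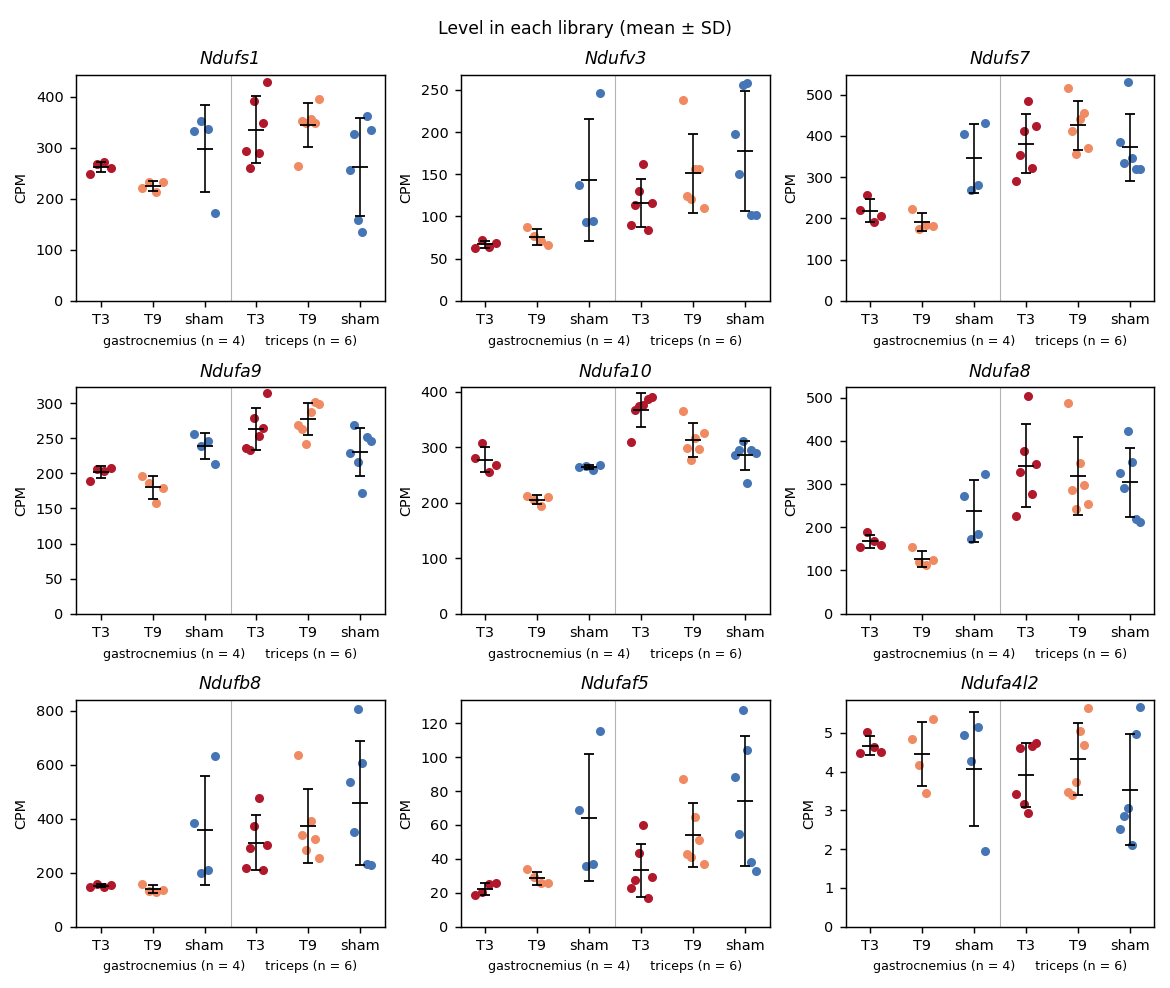
Level (CPM) in each library of 9 members, with mean ± SD, for T3, T9 and sham in gastrocnemius (n = 4) and triceps (n = 6). Ndufb8 and Ndufaf5 show narrow T3 and T9 groups below a widely spread sham group in the gastrocnemius, Ndufa10 a narrow sham group at 258 to 268 CPM above T9 at 194 to 211 CPM, and every triceps T3 and T9 group overlaps its sham group.

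Directly compared, T3 and T9 gastrocnemius had 0 members higher and 0 lower (0.729% of all genes were higher and 0.898% lower), and the median log2 difference was 0.11, beside -0.11 over all genes. The smallest adjusted p was that of Ndufa10, 0.43 ± 0.11 higher in T3 than in T9 (adjusted p = 0.0659). All T3 libraries were above all T9 libraries for Ndufa8, Ndufa10 and Ndufs1 (5.88% of all genes) and below them for Ndufaf2 and Ndufaf5 (12.3% of all genes). At an unadjusted p under 0.05, 1 member was higher in T3 (Ndufa10) and 1 lower (Ndufaf2), and limma with read-based weights gave 0 and 0.

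In the triceps, 2 of 48 members fell and 1 rose after T3 transection, where 4.32% of all genes fell and 19% rose, and the median log2 change was -0.35, beside 0.23 over all genes. After T9 transection 0 fell and 0 rose (at an unadjusted p under 0.05, 0 were lower and 4 higher; read-based weights gave 0 and 0), where 0.0% of all genes fell and 0.00889% rose, and the median was -0.14, beside 0.17. No member had triceps libraries wholly above or below sham in either comparison (for T3, 1.0% of all genes were below and 5.62% above; for T9, 0.0444% and 0.818%). The summed level was 10870 ± 2599 CPM in T3, 12120 ± 3049 CPM in T9 and 13510 ± 5168 CPM in sham libraries (SD, n = 6 each).

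Ndufaf5 was again the lowest member, at 16.9, 28.3 and 59.9 CPM (lowest, median and highest library) in T3, 36.8, 47.1 and 87.1 CPM in T9 and 32.6, 71.3 and 128 CPM in sham triceps. The T3 and sham ranges overlapped, and the log2 change of -1.11 ± 0.28 passed (adjusted p = 0.00897). Ndufb2 was at 6.99, 10.1 and 15.98 CPM in T3, 8.87, 13.8 and 21.3 CPM in T9 and 9.06, 17.9 and 42.3 CPM in sham triceps. It fell by 0.74 ± 0.26 for T3 (adjusted p = 0.0457) with overlapping groups. Ndufa10 was at 309, 376 and 391 CPM in T3, 278, 308 and 365 CPM in T9 and 235, 292 and 312 CPM in sham triceps. It was the member that rose, by 0.37 ± 0.10 (adjusted p = 0.0176), T3 replicate 1 was the one T3 library within the sham range, and with each library scaled to a common median 0 members rose.

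Between T3 and T9 triceps, 0 members were higher and 0 lower (4.95% of all genes were higher and 2.65% lower); at an unadjusted p under 0.05, 1 was higher and 2 were lower, and read-based weights gave 0 and 0. No T3 group lay wholly above or below the T9 group for any member (3.3% and 1.67% of all genes).

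Ndufs1, which had the highest change of any member in both triceps comparisons, was at 259, 321 and 429 CPM in T3, 265, 350.0 and 396 CPM in T9 and 135, 292 and 362 CPM in sham triceps, a log2 change of 0.43 ± 0.19 for T3 (adjusted p = 0.115) and 0.48 ± 0.19 for T9 (adjusted p = 0.422). The ranges overlapped, and the lowest libraries were sham ones. Ndufa9 was at 233, 258 and 315 CPM in T3, 243, 278 and 302 CPM in T9 and 172, 238 and 269 CPM in sham triceps, and changed by 0.20 ± 0.11 and 0.27 ± 0.11 (adjusted p = 0.199 and 0.422). Ndufaf3 was at 17.8, 25.2 and 36.2 CPM in T3, 20.8, 24.2 and 29.3 CPM in T9 and 17.5, 19.6 and 22.1 CPM in sham triceps, and its T3 change of 0.36 ± 0.15 did not pass (adjusted p = 0.0844). Ndufaf1, with 0.33 ± 0.14 for T9 (adjusted p = 0.43), and Ndufb4c, the lowest T9 value at -0.36 ± 0.30 (adjusted p = 0.601), did not pass either. The triceps T3 calls shift with the setting: with the library median as a covariate 1 member was lower and 8 were higher. In the 4 libraries per group that carry the number 60 in their labels, 2 were lower and 0 higher, with a members' median of -0.595. In the 2 per group that carry 57 there were 0 and 0, with a median of 0.149, so the sign of the median differed between the label numbers. What these numbers mark is not given. Leaving out 1 library gave 1 lower member for any of T3 replicates 1, 2, 3 and 5 and sham replicates 1, 3 and 4, and 4 or 6 for the others, while Ndufa10 was higher each time.

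The difference of the effects between muscles was tested in 24 libraries of 12 mice with both muscles, matched by the number the labels give to both libraries. For T9, 2 members were lower in the gastrocnemius effect than in the triceps effect and 0 were higher (3.19% of all genes were lower and 3.76% higher). The median difference of the members was -0.47, beside 0.15 over all genes, and 45 of 48 were below 0. For T3, 0 were lower and 0 higher (1.1% of all genes were lower and 0.142% higher), with a median of -0.16, beside -0.02. At an unadjusted p under 0.05, 5 were lower and 0 higher for T3, and read-based weights gave 0 and 0.

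The members lower for T9 were Ndufs1 and Ndufa9. For Ndufs1 the log2 difference of gastrocnemius minus triceps within a mouse was -0.26, -0.60, -0.70 and -0.61 in T9 mice and 0.37, 0.11, 1.09 and 0.34 in sham mice. Every T9 mouse was below 0 and every sham mouse above it, and the difference of the effects was -1.02 ± 0.22 (adjusted p = 0.0145). For Ndufa9 the same log2 difference was -0.45, -0.50, -0.62 and -0.68 in T9 mice and 0.16, -0.17, 0.18 and 0.31 in sham mice. These groups did not overlap either, and the difference of the effects was -0.69 ± 0.15 (adjusted p = 0.015). Ndufs1 and Ndufa9 were picked by the test on these same differences, so the separation adds no further evidence. Ndufs7, at -0.96 ± 0.27, was next (adjusted p = 0.0504), and Ndufaf2 had the highest difference, 0.56 ± 0.37 (adjusted p = 0.44). For T3, Ndufs1 (-0.70 ± 0.22; adjusted p = 0.164), Ndufa9 (-0.43 ± 0.15; adjusted p = 0.219) and Ndufaf3 (-0.54 ± 0.24; adjusted p = 0.392) had the smallest adjusted p, and Ndufaf8 the highest difference (0.29 ± 0.37).

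The T9 count rests on few mice: without the mouse of triceps T9 replicate 3 it was 0, without that of T9 replicate 4 it was 1, and without that of triceps sham replicate 3 it was 20. In that sham mouse, whose Ndufs1 difference of 1.09 was the highest of the sham mice, the deviations of its gastrocnemius and triceps libraries from their group means had a correlation of -0.75, against 0.12 to 0.73 in the other 11; the match of libraries to mice rests on the labels alone. With the library median as a covariate 9 members were lower for T3 and 15 for T9, against 0 and 2 higher, and Ndufs1 (-0.66 and -1.15), Ndufa9 (-0.43 and -0.70) and Ndufs7 (-0.65 and -0.76) were among the lower ones for both.

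Between the muscles themselves, 38 members were lower in the gastrocnemius than in the triceps of T3 mice and 0 higher (9.95% of all genes were lower and 20.5% higher), and in T9 mice 44 were lower and 0 higher (11.1% and 41.9%). In sham mice 35 were lower and 3 higher (12.0% and 26.8%). The median log2 difference was -0.86 in T3, -1.15 in T9 and -0.69 in sham mice, beside 0.23, 0.40 and 0.27 over all genes. The 3 that were higher in sham gastrocnemius were Ndufs1 (0.48 ± 0.16; adjusted p = 0.0307), Ndufv1 (0.33 ± 0.12; adjusted p = 0.041) and Ndufa4l2 (0.54 ± 0.20; adjusted p = 0.0452). Without the mouse of triceps sham replicate 2 the sham comparison had 13 lower and 2 higher. Without the mouse of triceps sham replicate 3, the same one, or without mouse as a term, the sham comparison had 0 lower and 0 higher; without the mouse of triceps T3 replicate 3 or 4 the T3 comparison had 7 and 6 lower.

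The 7 complex I subunits encoded in the mitochondrial genome were measured in the same libraries. In gastrocnemius their summed level was 26840 ± 1243 CPM in T3, 30640 ± 2589 CPM in T9 and 34390 ± 919 CPM in sham libraries (SD, n = 4 each). The sum was thus narrowest in sham, but the SD of each single subunit was wider in sham than in T3. For mt-Nd3 it was 1195 CPM in sham (636 to 3186 CPM) and 42.8 CPM in T3. After T3, 3 of 7 fell, mt-Nd1 by 0.58, mt-Nd2 by 0.42 and mt-Nd3 by 1.08 on the log2 scale (adjusted p = 0.00891, 0.0366 and 0.0427), and after T9, 0 of 7 passed, with a median of -0.06. In the triceps 0 of 7 passed after T3 or T9. PolyA selection captures most mitochondrial transcripts by their short tails, and tails were not measured here.

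Of 11 assembly factors without an Nduf symbol, 3 fell after T3 (Dmac2, Timmdc1 and Tmem126b), and after T9 2 fell (Dmac2 and Ecsit) and Tmem186 rose. Dmac2, a distal membrane arm assembly factor, fell by 0.51 and 0.76 in the gastrocnemius (adjusted p = 0.012 and 0.00115) and rose by 0.54 after T3 in the triceps (adjusted p = 0.00932); the difference of its effects was -1.04 for T3 (adjusted p = 0.0193) and -1.12 for T9 (adjusted p = 0.00447).

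Subunits of the other respiratory complexes were lower in the gastrocnemius too. In complex II, 3 of 4 subunits fell after each transection. Of the nuclear subunits of complexes III, IV and V, 17 of 35 fell after T3 and 31 of 35 after T9, with 0 higher and medians of -0.69 and -0.85. Cyc1, the cytochrome c1 of complex III, fell by 0.76 and 0.95 (adjusted p = 0.000859 and 0.000207), and Cox7a1, a muscle subunit of complex IV, by 1.38 and 1.70 (adjusted p = 0.0109 and 0.0032). In the triceps, 1 of these 35 fell (Atp5e) and 1 rose (Atp5a1) after T3, and 0 passed after T9.

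**Figure D4:**
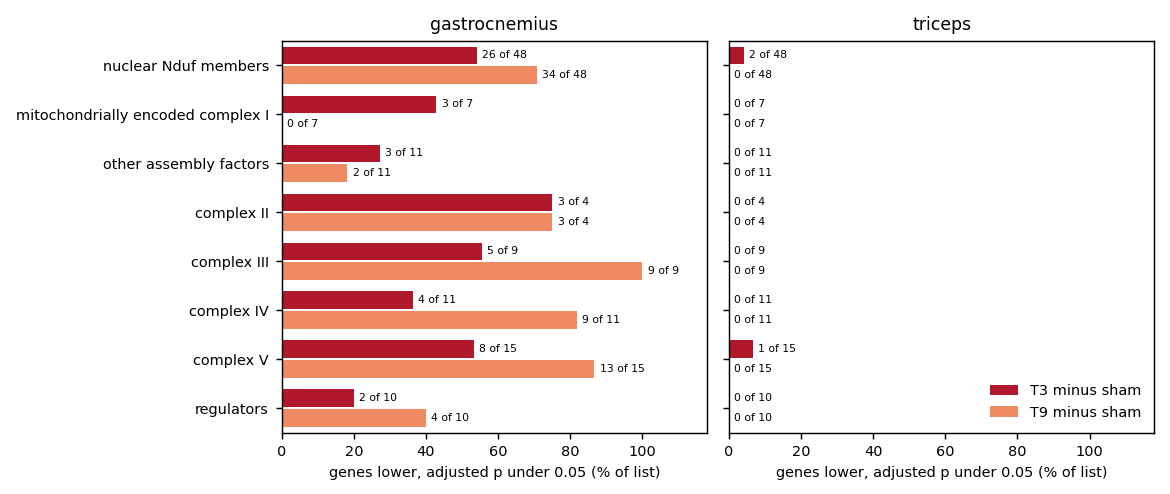
Share of each gene list that was lower than sham (adjusted p under 0.05; number of genes beside the bar), for T3 and T9 in gastrocnemius (left) and triceps (right). Nuclear Nduf members and complexes II to V have bars in both gastrocnemius comparisons, the mitochondrially encoded subunits in T3 with 3 of 7, and the triceps has 2 of 48 and 1 of 15 in T3.

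Among 10 regulators of mitochondrial genes, the coactivators Ppargc1b and Perm1 fell after both transections in the gastrocnemius. Perm1 was at 86.9 ± 58.4 CPM in T3, 17.5 ± 6.48 CPM in T9 and 223 ± 78.2 CPM in sham gastrocnemius (SD, n = 4 each). Its log2 change was -1.50 for T3 (adjusted p = 0.0131) and -3.67 for T9 (adjusted p = 5.07e-05). In the triceps, Perm1 rose by 1.06 after T3 (adjusted p = 0.0169). Ppargc1b, a coactivator of the PGC-1 family, fell by 1.63 and 1.40 (adjusted p = 0.00191 and 0.00438), and its relative Ppargc1a and the receptor gene Esrra fell after T9 (-1.25 and -1.18).

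Of the factors whose motifs were searched, Nrf1 rose by 0.71 and 0.65 and Yy1 by 0.58 and 0.45 in the gastrocnemius, beside medians over all genes of 0.27 and 0.40. Gabpa, a subunit of GABP, was at 25.5 ± 1.04 CPM in T3, 27.8 ± 4.41 CPM in T9 and 24.5 ± 4.68 CPM in sham gastrocnemius and did not pass (0.08 and 0.19; adjusted p = 0.733 and 0.348). Of the oestrogen-related receptors, Esrra did not pass for T3 (-0.41; adjusted p = 0.0941) and fell for T9, as given above, and Esrrg passed in neither (0.06 and -0.59). The mitochondrial transcription factor gene Tfb2m rose by 0.43 and 0.44. In the triceps, 7 of 10 regulators rose after T3. After T9, 0 passed in a comparison where 0.00889% of all genes rose, and the highest log2 change among the regulators was 1.65. Ppargc1a was at 185 ± 70.5 CPM in T3, 116 ± 30.0 CPM in T9 and 40.95 ± 23.98 CPM in sham triceps (SD, n = 6 each). It rose by 2.27 for T3 (adjusted p = 9.89e-05), and the difference of its effects between muscles was -3.04 for T3 and -3.10 for T9 (adjusted p = 0.000105 and 5.48e-05).

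The median transcript length of the 46 coding members was 977 nt. Of the 23 shorter members 14 fell after T3 and 17 after T9, and of the 23 longer members 10 and 15 fell. Over all genes, those shorter than 977 nt had median log2 changes of -0.20 and -0.09, against 0.31 and 0.44 for the longer ones. After removing a trend over length and GC content from every library, 29 members were lower for T3 and 30 for T9, with medians of -0.37 and -0.43 and 0 higher.

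Across the 46 coding members, the range over the 6 sham triceps libraries had a Spearman correlation of -0.67 with the T3 change and -0.51 with the T9 change in gastrocnemius. These are descriptions across genes of the same libraries. Of the 6 sham triceps libraries, 4 share a label number with a gastrocnemius sham library, which is taken here as the same mouse. Length itself had correlations of 0.29 and 0.27 with the changes and -0.44 with the sham gastrocnemius range. Slow-fibre markers, which mark only a part of the oxidative fibres, summed to 620 ± 136 CPM in T3, 530 ± 177 CPM in T9 and 889 ± 445 CPM in sham gastrocnemius. Of these 7 markers, 1 fell for T3 and 2 for T9. Of 9 fast-fibre markers, 1 rose and 2 fell for T3, and 2 fell for T9. Skeletal muscle markers summed to 105700 ± 3324 CPM in T3, 109600 ± 4988 CPM in T9 and 129100 ± 4252 CPM in sham gastrocnemius, and 4 of 10 fell and 1 rose for each transection.

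Adipocyte markers summed to 178 ± 36.9 CPM in T3, 221 ± 25.0 CPM in T9 and 329 ± 95.2 CPM in sham gastrocnemius, and 1 of 5 fell for each. Of 8 fibroblast markers, 3 fell for T3 and 1 for T9. Of the brown adipocyte list only Ppara was in the table, and it fell for T9. Ucp1 and Cidea were not in the table, so brown adipocytes cannot be judged from this list. Rises among markers of other cells are to be read against the 27.1% of all genes that rose for T3 and the 37.6% for T9. They numbered 1 and 2 of 2 satellite cell, 1 and 3 of 9 macrophage, 1 and 1 of 7 endothelial and 0 and 1 of 4 Schwann cell markers for T3 and T9, and 0 of 4 erythroid markers passed in either. The part of fibre type or of other cells in the members' change was not tested.

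**Figure D5:**
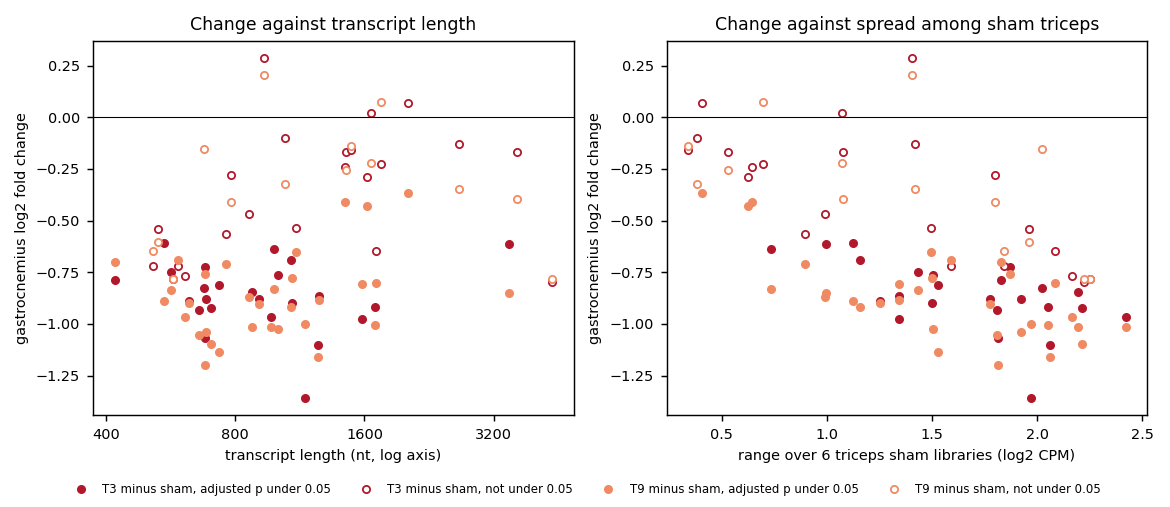
Gastrocnemius log2 fold change of the 46 coding members for T3 and T9 against sham, plotted against transcript length (left, nt on a log axis) and against the member's range over 6 sham triceps libraries (right, log2 CPM). Filled points have an adjusted p under 0.05. Members with a wide sham triceps range have lower changes (Spearman -0.67 for T3 and -0.51 for T9).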

How the data were processed

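RNA was sequenced with a strand-specific polyA kit as paired-end reads, per the labels' protocols; HISAT2 2.1.0, GRCm38, featureCounts, Subread 1.5.1 and limma are named in the submitters' processing notes, while no source used here gives the annotation or gene filter. The authors deposited log2 CPM values for 11249 genes in 30 libraries; with an offset of 0.5 reads, 100.0% of values gave whole reads within 0.01. From these log2 values, each comparison was fitted with limma 3.58.1 (R 4.3.3; trended variance) and Benjamini-Hochberg adjustment over all genes at log2 of at least 0 in at least 4 libraries, which left out 1 gene in gastrocnemius. The 12 gastrocnemius libraries were fitted together, the 18 triceps libraries along with their label number (57 or 60) as a covariate, and comparisons between muscles in 24 libraries with the mouse as a term. The mouse was taken from a number that the labels of both muscles share. Deviations of paired libraries had r over 0.1 in 11 of 12 mice (mean 0.32, lowest -0.75, in the mouse of sham replicate 3 of both muscles). Triceps T9 and sham libraries with the same title replicate number, which had different surgeries, had r over 0.1 in 4 of 6 pairs (mean 0.26). Such correlations therefore cannot show that the label number marks a mouse. Summaries used Python 3.11.15, numpy 2.4.6 and pandas 2.3.3. Symbols came from GENCODE for 11240 IDs. Alternatives were library scaling, weights, covariates, filters, a pseudocount of 1 CPM, length and GC trends, and left-out libraries. The fit was tested on simulated data. Members and gene lists were chosen with earlier results of these data known. Values per library are given for the 3 members with the smallest adjusted p and those with the extreme changes in each comparison with sham and each difference between muscles, and for members called against the main direction; other genes are mostly the 3 with the smallest adjusted p per list and comparison. The per-library values of Ndufa4 and of other members, and further list genes such as Gabpa and Tfb2m, were chosen after their values were seen. Results of 1 member are not reported here.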

Additional observations from a re-analysis of the deposited data

Results flagged for a closer look

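In 114 member groups tested for a single library far from the others, chance alone flags about 1 in 20 groups. Ndufs1 was at 7.42 log2 CPM in gastrocnemius sham replicate 4, where the other 3 sham libraries held 8.38 to 8.46, and Ndufv1 was at 8.35 in the same library, where the others held 8.73 to 8.76. That library had the highest level of 41 of the 48 members and the lowest of 4, Ndufs1 and Ndufv1 among them. Ndufs1 was also low in triceps T9 replicate 1, at 8.05 against 8.45 to 8.63 in the other T9 libraries. Ndufa10 was at 8.27 in triceps T3 replicate 1, where the others held 8.52 to 8.61, and at 7.88 in triceps sham replicate 4, where the others held 8.16 to 8.29. Ndufs7 was at 9.05 in triceps sham replicate 3, where the others held 8.32 to 8.59.

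The T9 effect differed between the muscles by the test of the difference for Ndufs1, at -1.02 on the log2 scale (gastrocnemius minus triceps), and for Ndufa9, at -0.69.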

How the results depend on the processing

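No alternative gave a member higher in a gastrocnemius comparison with sham, except the library median as a covariate (1 higher and 1 lower for T3, and 1 and 1 for T9). The number of lower members for T3 was 16 with library weights, 8 with only the groups compared and 7 to 36 when each library was left out. It was 7 without sham replicate 1 and 16 without sham replicate 4. For T9 the number was 22 with only the groups compared and 21 to 39 with a library left out. Of the 4 libraries of lowest median, only sham replicate 4 is a gastrocnemius library. Within this muscle, leaving out those 4 is therefore the same fit as leaving out sham replicate 4, not a separate check. T3 against T9 in gastrocnemius gave 1 lower with length and GC trends removed, the covariate, library weights or only the groups compared. It gave 1 higher with length and GC, the covariate, median centring, quantile normalization or without the 4 libraries, 3 with weights and 2 with only the groups compared. For triceps T3, lower members numbered 10 with length and GC, 9 with quantile normalization, 0 for label number 57 only or without the 4 libraries, 1 with the covariate, weights, centring, no label term or the replicate block, and 1 to 6 with a library left out. Higher members numbered 7 with length and GC, 8 with the covariate, 3 with weights, 0 with centring, quantile normalization or either label number alone, and 1 to 3 with a library left out. Triceps T3 against T9 gave 2 lower with length and GC, 1 with the covariate and 2 with weights, and 1 higher with weights.

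The difference of effects for T3 gave 3 lower with length and GC and 9 with the covariate. For T9 it gave 20 lower with length and GC, 15 with the covariate (and 2 higher), 19 with weights, 11 with quantile normalization, 1 without the 4 libraries and 0 to 20 with a mouse left out. Between muscles in T3 mice, 6 to 38 were lower with a mouse left out, and 1 higher without the 4 libraries; in T9 mice 17 were lower with the covariate and 2 higher with length and GC. In sham mice 9 were lower with length and GC, 0 with the covariate, with no replicate block or without the 4 libraries, and 0 to 37 with a mouse left out; 5 were higher with length and GC, 1 with weights, 0 with the covariate, centring, no replicate block or without the 4 libraries, and 0 to 2 with a mouse left out.

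Ndufa4l2 reversed for gastrocnemius T3 (-0.36 covariate, -0.052 weights, -0.033 without the 4 libraries, -0.033 to 0.431 with a library left out) and T9 (-0.73 covariate, -0.13 weights, -0.19 centring, -0.22 quantile normalization, -0.116 without the 4 libraries, -0.116 to 0.348 with a library left out). Ndufb8 for gastrocnemius T9 was 0.11 with the covariate, Ndufb4c for triceps T9 0.37 for label number 57 only and 0.16 with the covariate, and Ndufaf8 in the T3 difference of effects -0.061 to 0.551 with a mouse left out (-0.061 without that of triceps sham replicate 3). The cause was not tested. Libraries of different surgeries with the same title replicate number had a mean r of -0.14 to 0.26. With that number as a replicate block, 24 members were lower for gastrocnemius T3 and 34 for T9.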
